A study of Brassica oleracea with 107 samples.

Results

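Embryos of Brassica oleracea, the species of cabbage, kale and broccoli, were examined on day 18 after their plants had been moved from 26 °C back to 16 °C. The recovery column of day 18 was set against that of embryos left at 26 °C and sampled on day 18. Embryos at 26 °C sampled on day 15 and embryos kept at 16 °C and sampled on day 18 gave the other columns. Genes were taken where at least 1 of these 4 columns was at 1 TPM or more, which kept 9497 of the 13120 genes in the embryo table. TPM corrects the reads of a gene for its length and for the size of the library. All differences between columns are on the log2(TPM + 1) scale, which understates those of genes with low values, and a gene is called higher or lower only where it differs by 2-fold or more on that scale.

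All plants, those of every group here included, had grown under 21 °C up to bolting and under 16 °C up to bent-cotyledon embryos, when some were put under 26 °C, per the labels. The sources used here do not give the day on which the recovery plants were moved back. Each of the 4 groups had 3 libraries of dissected embryos, but the deposited table gives 1 value per group. No difference here therefore has an SD, an n or a test, and counts of genes describe these columns. Per the labels the table holds genes that the authors selected as differentially expressed, so the counts are not independent evidence that the groups differ.

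In the last stretch of seed development the embryo has finished its pattern, fills with storage protein and oil, and becomes able to survive drying. Abscisic acid and a small set of seed transcription factors drive this maturation programme, and the transcripts of growing tissue give way to those of a dry seed. In Arabidopsis, the temperature around the mother plant in this period is known to alter the dormancy of the seed. None of the 13120 identifiers matched the 53125 genes of the RefSeq table for this species, so no gene is named by function, no embryo marker could be looked up, and no sequence is shown. Depth is unknown, since TPM keeps no record of it. The listed genes held 68.8% of all TPM in recovery on day 18, 67.7% in 26 °C embryos of day 18, 66.5% in 26 °C embryos of day 15 and 71.3% in 16 °C embryos of day 18.

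In whole embryos, fewer cells of a type and less RNA per cell cannot be told apart. Recovery embryos lay between the columns at 26 °C and 16 °C of day 18, nearer 26 °C. Relative to 26 °C, 257 genes were higher in recovery (2.71% of the 9497) and 436 were lower (4.59%). Relative to 16 °C, 818 genes were higher in recovery (8.61%) and 1228 lower (12.9%). Relative to 26 °C on day 15, 219 were higher in recovery (2.31%) and 593 lower (6.24%). The root-mean-square log2 difference of recovery over all genes was 0.574 from 26 °C on day 18, 0.605 from 26 °C on day 15 and 0.902 from 16 °C on day 18. For scale, it was 1.263 between 26 °C and 16 °C on day 18, and 0.642 between recovery on day 18 and 16 °C on day 22.

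The split between higher and lower genes depended on the scaling. After rescaling without the 10 most abundant genes of each column, recovery lay above 26 °C in 497 genes and below it in 445. With rescaling 10606 genes passed the filter, not 9497, so its counts and medians are over another set of genes. After centring each column on its median, recovery lay above 16 °C in 1087 genes and below it in 906, and above 26 °C of day 15 in 402 and below it in 342. Over all genes, the median difference of recovery minus 26 °C was 0.01 as deposited, 0.02 after centring and 0.09 after rescaling. That of recovery minus 16 °C was -0.15, -0.02 and -0.29, and that of recovery minus 26 °C on day 15 was -0.20, 0.02 and -0.17.

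On day 18, 3912 genes differed at least 2-fold between 26 °C and 16 °C (41.2%), 1678 of them higher at 26 °C (17.7%) and 2234 lower (23.5%). For each such gene the share of the way back was taken as the place of recovery on the line from the 26 °C value, at 0, to the 16 °C value, at 1. A gene was called returned where this share was 0.5 or more, held where it was less, and outside where recovery lay at least 2-fold above or below both temperatures. By this rule 1012 genes were returned (10.7%), 2884 were held (30.4%), 8 lay above both temperatures (0.0842%) and 40 below both (0.421%). The other 5553 genes had no 2-fold difference between the temperatures and were not split. Because the share is computed from the 26 °C and 16 °C columns that also chose the genes, these counts are a description.

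The shares formed 1 broad peak with no gap at the split point. Their median was 0.365, the middle of the genes (25th to 75th percentile) lay between 0.216 and 0.507, and the 10th and 90th percentiles were 0.071 and 0.637. Genes higher at 26 °C had a median share of 0.394 and genes lower at 26 °C one of 0.337. Of the genes higher at 26 °C, 542 (32.3%) lay nearer to 16 °C than to 26 °C in recovery, against 478 (21.4%) of the genes lower at 26 °C. A share between 0.75 and 1 was held by 137 of the 3912 genes and one over 1 by 48, while 231 had a share under 0, which means that they lay beyond the 26 °C value. In recovery, 2066 of the 3912 were within 2-fold of the 16 °C value, and 606 had moved at least 2-fold from 26 °C towards 16 °C. The 606 included 397 of the 1012 returned genes and 201 of the 2884 held genes. Most returned genes were thus within 2-fold of their 26 °C value.

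**Figure D1:**
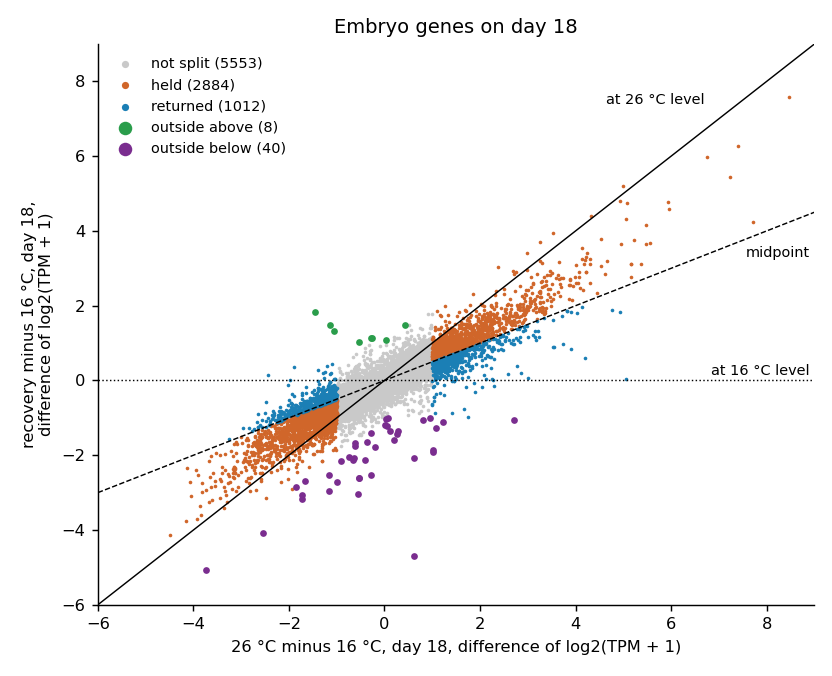
Each point is 1 of the 9497 embryo genes on day 18, with the difference of log2(TPM + 1) between 26 °C and 16 °C on the x axis and between recovery and 16 °C on the y axis, coloured by class. The solid, dashed and dotted lines mark the 26 °C level, the midpoint and the 16 °C level. Points between the solid and dashed lines have a share of the way back between 0 and 0.5, and 231 of the 3912 genes with a 2-fold temperature difference lie beyond the solid line.

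**Figure D2:**
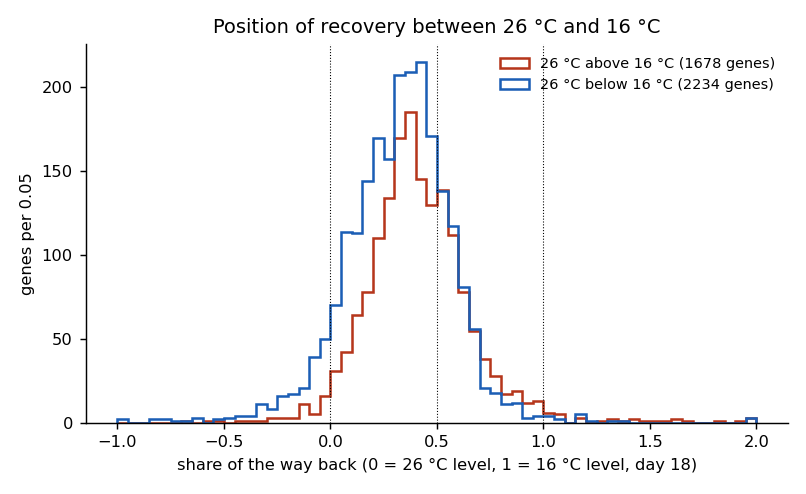
Histogram of the share of the way back from the 26 °C level (0) to the 16 °C level (1) for the 1678 genes higher and the 2234 genes lower in 26 °C embryos of day 18, in genes per bin of 0.05, with values beyond the axis put in its end bins. Each outline has 1 main peak between 0 and 0.5, with medians of 0.394 for the genes higher and 0.337 for the genes lower at 26 °C.

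The classes cannot be read as separate kinds of gene at their border. Just inside the returned class, Bo3g019020 stood at 3.598 TPM in recovery embryos, against 2.03 TPM in 26 °C and 5.99 TPM in 16 °C embryos. Just inside the held class, Bo4g182300 stood at 5.55 TPM in recovery embryos, against 11.7 TPM in 26 °C and 2.38 TPM in 16 °C embryos. Both had a share of 0.50 when rounded.

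Returned genes with a level at 26 °C above that at 16 °C numbered 537, and their median difference from 16 °C was 0.53 in recovery and 1.42 at 26 °C. The largest drop from 26 °C was that of Bo3g010180, with 0.25 TPM in recovery embryos, against 39.7 TPM in 26 °C embryos of day 18, 0.82 TPM in those of day 15 and 0.21 TPM in 16 °C embryos. The high value of this gene stood in the 26 °C column of day 18 alone: it was at 9.94 TPM or less in every other embryo column, and at 0.92 TPM in 26 °C embryos of day 22. Bo8g115630 stood at 9.05 TPM in recovery embryos, against 120 TPM in 26 °C embryos of day 18, 12.9 TPM in those of day 15 and 5.61 TPM in 16 °C embryos. Its recovery value was thus near those of day 15 and of 16 °C, but on day 22 it stood at 91.2 TPM in recovery embryos, against 119 TPM in 26 °C and 4.68 TPM in 16 °C embryos.

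Returned genes with a level at 26 °C below that at 16 °C numbered 475, with a median difference from 16 °C of -0.55 in recovery and -1.38 at 26 °C. Bo7g068820 stood at 24.0 TPM in recovery embryos, against 3.16 TPM in 26 °C embryos of day 18, 15.6 TPM in those of day 15 and 21.6 TPM in 16 °C embryos. Bo2g013440 stood at 20.95 TPM in recovery embryos, against 3.62 TPM in 26 °C embryos of day 18, 12.8 TPM in those of day 15 and 16.1 TPM in 16 °C embryos. In both genes recovery was above every one of the other 3 columns, by less than 2-fold over 16 °C. On day 22 Bo7g068820 no longer differed in this way, at 24.03 TPM in recovery embryos against 24.9 TPM in 26 °C embryos, while Bo2g013440 was at 3.95 TPM in recovery embryos against 1.98 TPM in 26 °C embryos.

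Held genes included those with the widest temperature differences of the table. Bo3g035510 stood at 2234 TPM in recovery embryos, against 4092 TPM in 26 °C embryos of day 18, 272 TPM in those of day 15 and 10.6 TPM in 16 °C embryos, a share of the way back of 0.10. Its recovery value lay 3.03 log2 units above the 26 °C value of day 15. Bo2g080490 stood at 28.3 TPM in recovery embryos, against 324 TPM in 26 °C embryos of day 18, 17.0 TPM in those of day 15 and 0.55 TPM in 16 °C embryos, and counted as held with a share of 0.45 although recovery was 3.47 log2 units below 26 °C. The same gene was at 148 TPM in recovery embryos against 144 TPM in 26 °C embryos on day 22, so the gap of day 18 was not present then. Bo4g190800, the second gene furthest above 16 °C in recovery, stood at 7284 TPM in recovery embryos, against 15960 TPM in 26 °C embryos of day 18, 2753 TPM in those of day 15 and 93.95 TPM in 16 °C embryos.

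On the low side, Bo7g116690 stood at 0.36 TPM in recovery embryos, against 0.05 TPM in 26 °C embryos of day 18, 0.78 TPM in those of day 15 and 22.6 TPM in 16 °C embryos. Bo7g044900 stood at 10.6 TPM in recovery embryos, against 7.72 TPM in 26 °C embryos of day 18, 9.48 TPM in those of day 15 and 154 TPM in 16 °C embryos. At 16 °C this gene was at 2764, 2376, 2569, 1332, 395, 154 and 67.2 TPM on days 0, 1, 3, 7, 15, 18 and 22, lower at each step after day 3. Among the 10 most abundant genes of the 16 °C column, 3 were returned, 3 were held and 4 were not split. Bo7g111280, the first of them, stood at 82260 TPM in recovery embryos, against 49050 TPM in 26 °C embryos of day 18, 83280 TPM in those of day 15 and 145300 TPM in 16 °C embryos. The 10 most abundant genes of each column took 38.3% of TPM in recovery, 31.5% in 26 °C embryos of day 18, 36.2% in 26 °C embryos of day 15 and 44.7% at 16 °C.

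**Figure D3:**
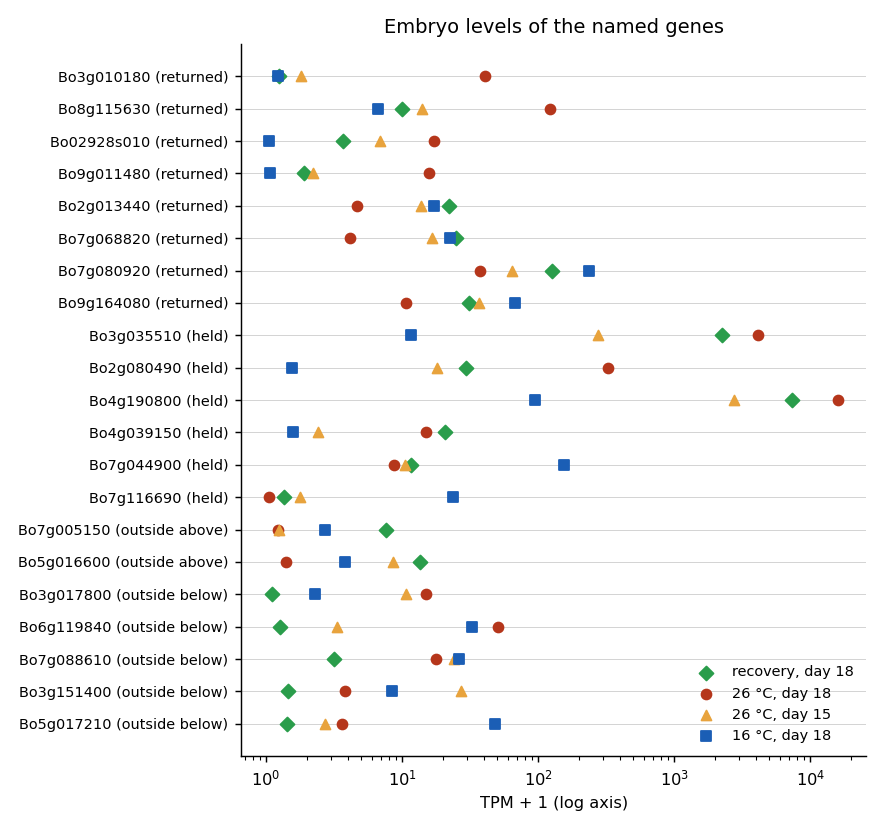
Level in TPM + 1 on a log axis of the genes named by class or comparison, without the pair at the split point, 1 row per gene with its class in brackets, and 1 symbol for each of recovery on day 18, 26 °C on day 18, 26 °C on day 15 and 16 °C on day 18. In Bo3g010180 the recovery symbol stands beside the 16 °C symbol, and in Bo6g119840 it stands left of all others, at 0.27 TPM before 1 was added.

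Summed levels show how much of the transcript pool the classes held. The 1136 held genes with the higher level at 26 °C took 14.8% of TPM in recovery, 23.9% in 26 °C embryos of day 18, 11.2% in 26 °C embryos of day 15 and 4.61% at 16 °C. The 1748 held genes with the lower level at 26 °C took 12.9% in recovery, 8.61% in 26 °C embryos of day 18, 13.9% in 26 °C embryos of day 15 and 24.9% at 16 °C. For the 475 returned genes with the lower level at 26 °C the shares were 12.8% in recovery, 7.34% in 26 °C embryos of day 18, 13.9% in 26 °C embryos of day 15 and 16.6% at 16 °C. In these sums recovery lay nearer to the 26 °C column of day 15 than to either day 18 column.

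A gene that came back and a gene that stayed at its 26 °C level of day 15 cannot be told apart where that level equalled 16 °C. The genes 2-fold apart between 26 °C and 16 °C on day 18 were therefore sorted by their 26 °C value on day 15. In 1072 of them the 26 °C embryos of day 15 already stood at least 2-fold from 16 °C of day 18 on the same side and within 2-fold of 26 °C of day 18. Of these, 172 (16.0%) were returned, and the median share of the way back was 0.308. In 1036 the difference had arisen after day 15: day 15 was within 2-fold of 16 °C, and 26 °C moved at least 2-fold from day 15 to day 18. Of these, 376 (36.3%) were returned, with a median share of 0.424. In a further 305 genes the difference was there on day 15 and widened 2-fold, and 38 (12.5%) were returned. The other 1499 genes met none of these conditions, and 426 (28.4%) of them were returned, with a median share of 0.382. These shares use the 26 °C and 16 °C columns of day 18 that also define the groups.

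Day 22 columns took no part in that sorting. Among the genes already different on day 15 and steady, the 564 with the higher level at 26 °C had a median difference from 16 °C on day 22 of 1.47 in recovery and 1.91 at 26 °C, and the 508 with the lower level had -1.24 and -1.56. Among the genes whose difference arose after day 15, the 380 with the higher level had 0.87 in recovery and 1.22 at 26 °C, and the 656 with the lower level had -0.61 in recovery and -1.10 at 26 °C. In all 4 sets recovery stood between 26 °C and 16 °C on day 22 as well.

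In genes chosen for a 2-fold change at 26 °C from day 15 to day 18, the median recovery difference was part of that change. Of the 660 genes at least 2-fold higher in 26 °C embryos of day 18 than on day 15 (6.95%), 419 were nearer their day 15 value in recovery and 241 nearer their day 18 value. The median difference from day 15 was 0.56 in recovery and 1.41 in 26 °C embryos of day 18. Of the 1066 genes lower on day 18 than on day 15 at 26 °C (11.2%), 407 were nearer day 15 in recovery and 659 nearer day 18, with medians of -0.83 in recovery and -1.29 in 26 °C embryos of day 18. Both differences share the day 15 column, and the 26 °C column of day 18 also chose the genes. That choice favours a smaller difference in recovery, so these counts and medians are a description. The gene furthest above day 15 in recovery was Bo4g039150, with 19.7 TPM in recovery embryos, against 14.02 TPM in 26 °C embryos of day 18, 1.42 TPM in those of day 15 and 0.58 TPM in 16 °C embryos.

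The 257 genes higher in recovery than at 26 °C mostly had lower levels in older embryos. Their median log2 level at 16 °C was 6.405 on day 0 and 4.47 on day 22, and 196 of them (76.3%) were at least 2-fold lower in 16 °C embryos of day 22 than on day 0, against 45.2% of all genes. Of the 257, 236 were at least 2-fold lower at 26 °C than at 16 °C on day 18. Among genes with the lower level at 26 °C, 70.1% of the held and 73.7% of the returned fell likewise from day 0 to day 22. The fall is thus not particular to the genes higher in recovery. On day 18 their median level was 4.03 in recovery, 2.67 at 26 °C and 4.96 at 16 °C, and on day 15 at 26 °C it was 4.20. They took 1.43% of TPM in recovery, 0.625% in 26 °C embryos of day 18, 1.35% in 26 °C embryos of day 15 and 2.42% at 16 °C. Of the 257, 165 were returned, 68 held, 8 above both temperatures and 16 not split.

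The 436 genes lower in recovery than at 26 °C more often than other listed genes had higher levels in older embryos. Their median log2 level at 16 °C was 0.97 on day 0 and 2.498 on day 22, and 230 of them (52.8%) were at least 2-fold higher in 16 °C embryos of day 22 than on day 0, against 13.2% of all genes. Of the 436, 370 were at least 2-fold higher at 26 °C than at 16 °C on day 18. Among genes with the higher level at 26 °C, 40.5% of the held and 30.7% of the returned rose likewise from day 0 to day 22. On day 18 their median level was 2.23 in recovery, 3.69 at 26 °C and 1.5 at 16 °C, and on day 15 at 26 °C it was 2.29. They took 2.77% of TPM in recovery, 7.08% in 26 °C embryos of day 18, 2.64% in 26 °C embryos of day 15 and 0.659% at 16 °C. Of the 436, 232 were returned, 133 held, 40 below both temperatures and 31 not split. In both lists, the median in recovery on day 18 was near that of 26 °C on day 15. The recovery and 26 °C columns of day 18 chose both lists. Their day 18 levels, TPM shares and class counts, and this nearness to day 15, are therefore a description.

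**Figure D4:**
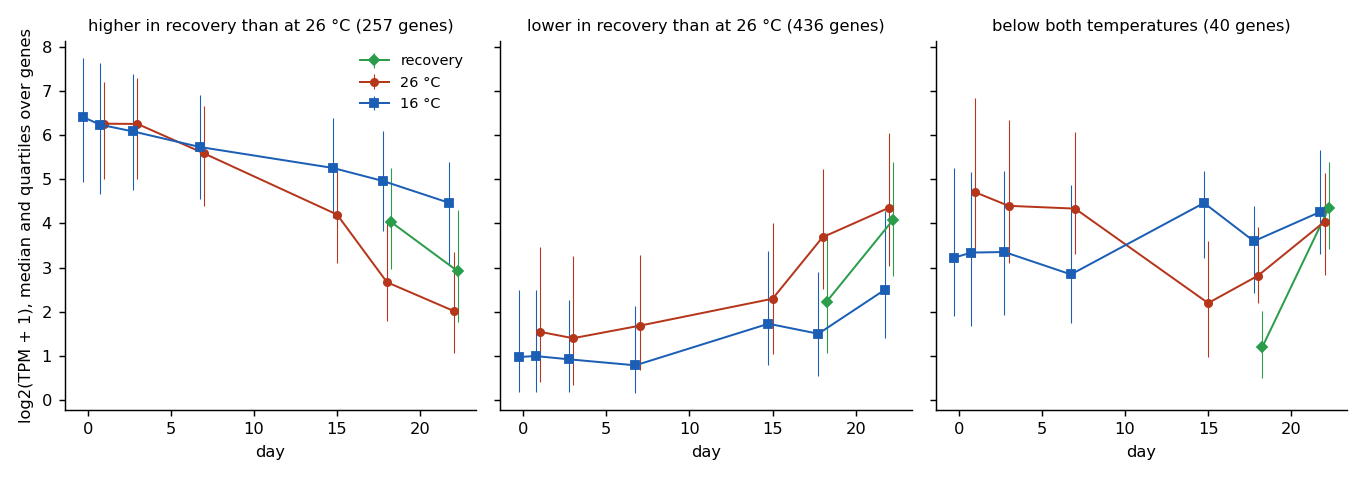
Median log2(TPM + 1) over genes, with bars from the 25th to the 75th percentile, against day for recovery, 26 °C and 16 °C, with symbols moved slightly sideways so that they do not hide each other. The panels hold the 257 genes higher and the 436 genes lower in recovery than in 26 °C embryos of day 18, and the 40 genes below both temperatures, whose recovery median is 1.19 on day 18 and 4.34 on day 22.

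The 40 genes below both temperatures had a pattern over the other days that the rule did not use. In the first week they were higher at 26 °C than at 16 °C: 23 of the 40 on day 1, 20 on day 3 and 27 on day 7 were at least 2-fold higher, against 9.42%, 5.72% and 9.59% of all genes. On both day 1 and day 7, 22 of the 40 were, against 4.58% of all genes. The median difference between 26 °C and 16 °C in these genes was 1.39 on day 1, 1.03 on day 3 and 1.58 on day 7. On day 15 it had the other sign, at -1.94, and 30 of the 40 were at least 2-fold lower at 26 °C, against 16.6% of all genes. The recovery value of day 18 was above the 26 °C value of day 15 in 4 of the 40. It was at least 2-fold under that value in 17 (42.5%), against 6.24% of all genes. In 28 of the 40 the recovery value was lower than in all 14 other embryo columns, against 675 of all 9497 genes. The choice of genes for a low recovery value favours these counts.

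Day 22 levels of these genes were set beside those of day 18. In recovery, 34 of these 40 genes were at least 2-fold higher on day 22 than on day 18 and none was lower, where 17% of all genes were higher and 5.33% lower. The rule chose these genes for a low value in the recovery column of day 18, so this count is a description and nothing is read from it. At 26 °C 24 were higher on day 22 than on day 18, against 14.3% of all genes, and at 16 °C 21 were, against 4.89%. On day 22 the median difference of recovery was 0.23 from 26 °C and -0.08 from 16 °C. After median centring, 22 of 34 such genes were higher in 26 °C embryos of day 7, and after rescaling 37 of 61 were.

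Bo6g119840 was the extreme case, with 0.27 TPM in recovery embryos, against 49.4 TPM in 26 °C embryos of day 18, 2.31 TPM in those of day 15 and 31.6 TPM in 16 °C embryos. At 26 °C it was at 22.5, 41.5, 214, 2.31, 49.4 and 622 TPM on days 1, 3, 7, 15, 18 and 22, and in recovery at 481 TPM on day 22. Bo7g088610 stood at 2.16 TPM in recovery embryos, against 16.8 TPM in 26 °C embryos of day 18, 22.9 TPM in those of day 15 and 25.02 TPM in 16 °C embryos. Its low value was confined to the recovery column of day 18 among the 15 embryo columns, the next lowest being 13.2 TPM in 16 °C embryos of day 7. Bo5g017210 stood at 0.43 TPM in recovery embryos, against 2.64 TPM in 26 °C embryos of day 18, 1.71 TPM in those of day 15 and 47.3 TPM in 16 °C embryos, and was the gene furthest below 16 °C.

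The genes furthest below 26 °C of day 15 in recovery were also among the 40. Bo3g151400 stood at 0.45 TPM in recovery embryos, against 2.78 TPM in 26 °C embryos of day 18, 26.3 TPM in those of day 15 and 7.41 TPM in 16 °C embryos. Bo3g017800 stood at 0.10 TPM in recovery embryos, against 14.1 TPM in 26 °C embryos of day 18, 9.68 TPM in those of day 15 and 1.29 TPM in 16 °C embryos. Its 16 °C level was at or under 1.29 TPM on every day before day 22, while at 26 °C it was between 9.68 and 17.3 TPM on days 1 to 18.

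Of the 8 genes above both temperatures, 6 were at least 2-fold higher in 26 °C than in 16 °C embryos of day 1, 6 on day 3 and 4 on day 7, against 9.42%, 5.72% and 9.59% of all genes. On day 15 none was higher and 2 were lower, against 13.1% and 16.6% of all genes. Bo5g016600 stood at 12.6 TPM in recovery embryos, against 0.39 TPM in 26 °C embryos of day 18, 7.56 TPM in those of day 15 and 2.79 TPM in 16 °C embryos. Bo7g005150 stood at 6.58 TPM in recovery embryos, against 0.22 TPM in 26 °C embryos of day 18, 0.24 TPM in those of day 15 and 1.69 TPM in 16 °C embryos. It was at 1.97 TPM or less in each of the 14 other embryo columns, and at 0.16 TPM in recovery on day 22.

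Genes chosen by their temperature difference on other days give a further comparison of recovery with 26 °C on day 18. The day 18 differences took no part in choosing them. The 1 TPM filter did use the day 18 columns, and the authors had selected the listed genes. The 911 genes at least 2-fold higher in 26 °C embryos of day 7 had a median difference from 16 °C on day 18 of 0.06 in recovery and 0.40 at 26 °C, and 148 of them (16.2%) were lower in recovery than at 26 °C, against 4.59% of all genes. For the 543 genes higher in 26 °C embryos of day 3 the medians were 0.02 in recovery and 0.24 at 26 °C, and 87 (16%) were lower in recovery. For the 895 genes higher in 26 °C embryos of day 1 they were -0.22 in recovery and -0.03 at 26 °C, below the 16 °C level in both, and 92 (10.3%) were lower in recovery. The recovery median of the day 7 genes was -0.08 without the filter, -0.05 after rescaling and 0.21 after centring, so its side of the 16 °C level depends on the setting. Without the filter the day 7 set held 1023 genes, and their median at 26 °C was 0.18.

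The 298 genes lower in 26 °C embryos of day 1 (3.14%) had medians of -0.15 in recovery and -0.38 at 26 °C on day 18, the 74 of day 3 (0.779%) had -0.55 in recovery and -0.57 at 26 °C, and the 194 of day 7 (2.04%) had -0.88 in recovery and -1.12 at 26 °C. Of these, 32 of the day 1 genes (10.7%), 3 of the day 3 genes (4.05%) and 19 of the day 7 genes (9.79%) were higher in recovery than at 26 °C, against 2.71% of all genes. Lower in recovery than at 26 °C were 10 (3.36%), 7 (9.46%) and 5 (2.58%), against 4.59% of all genes. In the day 3 set more genes were thus lower than higher.

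Genes were chosen in the same way on days 15 and 22. The 1240 genes higher in 26 °C embryos of day 15 (13.1%) had medians of 0.82 in recovery and 1.19 at 26 °C. Of these, 160 (12.9%) were lower in recovery than at 26 °C and none higher, against 4.59% and 2.71% of all genes. The 1574 genes lower in 26 °C embryos of day 15 had -1.04 in recovery and -1.31 at 26 °C. Of these, 128 (8.13%) were higher in recovery, against 2.71% of all genes, and 52 (3.3%) lower, against 4.59%. The 2912 genes higher in 26 °C embryos of day 22 (30.7%) had 0.54 in recovery and 0.89 in 26 °C embryos of day 18, and the 1751 lower in 26 °C embryos of day 22 (18.4%) had -0.87 and -1.40. Of the 2814 genes chosen on day 15 in either direction (29.6%), 516 lay nearer to 16 °C than to 26 °C in recovery on day 18. These were 230 of the genes higher (18.5%) and 286 of those lower at 26 °C (18.2%), against 32.5% of all genes. Most of all genes had no 2-fold temperature difference on day 18. Of the 3912 genes that had one, 26.1% lay nearer to 16 °C, though the day 18 columns chose these.

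A smaller list was higher at 26 °C on each of days 1, 3, 7 and 15. It held 78 genes, with a median difference from 16 °C on day 18 of 0.87 in recovery and 1.70 at 26 °C. Of these, 28 (35.9%) were at least 2-fold lower in recovery than at 26 °C and none higher, against 4.59% and 2.71% of all genes. On day 22 the same 78 genes had medians of 1.61 in recovery and 1.99 at 26 °C. The matching list of genes lower at 26 °C on all 4 days held 18 genes, of which 1 was lower and none higher in recovery than at 26 °C, with medians of -0.82 in recovery and -1.01 at 26 °C.

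**Figure D5:**
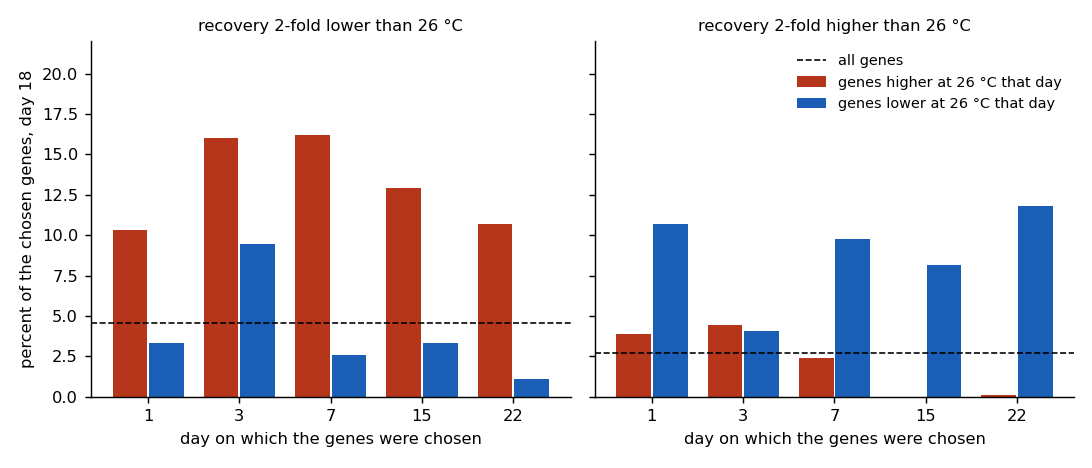
Percent of genes at least 2-fold lower (left) and at least 2-fold higher (right) in recovery than in 26 °C embryos of day 18, among genes chosen as higher or lower at 26 °C than at 16 °C on days 1, 3, 7, 15 and 22, with a dashed line for all 9497 genes at 4.59% and 2.71%. Genes higher at 26 °C on days 3 and 7 reach 16% and 16.2% in the left panel.

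Recovery embryos of day 22 gave a second look at the same move, with no column shared with day 18. On day 22, 313 genes were higher in recovery than at 26 °C (3.3%) and 113 lower (1.19%), or 544 and 71 after rescaling. Of the 257 genes higher in recovery on day 18, 89 were higher on day 22 too, which is 34.6% of the day 18 list and 28.4% of the day 22 list, and none was lower. Of the 436 genes lower on day 18, 48 were lower on day 22, which is 11% of the day 18 list and 42.5% of the day 22 list. Another 13 were higher on day 22. The median difference of recovery from 26 °C on day 22 was 0.77 for the first list and -0.51 for the second.

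Among the genes higher in recovery on both days, Bo7g080920 was at 126 TPM in recovery embryos of day 18, against 36.2 TPM in 26 °C and 233 TPM in 16 °C embryos, and at 19.98 TPM in recovery embryos of day 22, against 5.79 TPM in 26 °C and 232 TPM in 16 °C embryos. Bo9g164080 was at 30.1 TPM in recovery embryos of day 18, against 9.61 TPM in 26 °C and 66.4 TPM in 16 °C embryos, and at 9.04 TPM in recovery embryos of day 22, against 2.07 TPM in 26 °C and 28.6 TPM in 16 °C embryos. Both genes were lower in recovery on day 22 than on day 18, yet above 26 °C each time.

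Among the genes lower on both days, Bo02928s010 was at 2.68 TPM in recovery embryos of day 18, against 16.2 TPM in 26 °C and 0.05 TPM in 16 °C embryos, and at 18.4 TPM in recovery embryos of day 22, against 73.5 TPM in 26 °C and 0.94 TPM in 16 °C embryos. Bo9g011480 was at 0.89 TPM in recovery embryos of day 18, against 14.8 TPM in 26 °C and 0.06 TPM in 16 °C embryos. On day 22 it stood at 11.9 TPM in recovery embryos, against 37.2 TPM in 26 °C and 0.65 TPM in 16 °C embryos. In recovery both reached on day 22 about the 26 °C level of day 18.

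In endosperm with seed coat, whose libraries of these days were made with another kit, the day 18 columns stand in another order. The endosperm 16 °C column of day 18 comes from 2 libraries. Over the 7156 genes in both tables, 2067 were higher (28.9%) and 1369 lower (19.1%) than 16 °C in the endosperm column labelled recovery, against 857 higher (12%) and 908 lower (12.7%) in that labelled 26 °C, so the column labelled recovery lay further from 16 °C. Whether the labels of these 2 columns are exchanged cannot be told from the sources used here. Values are given as labelled, and an exchange would turn the direction of every day 18 difference between them. Of the 436 genes lower in embryo recovery, 413 are also in the endosperm table, and 248 of them (60%) were at least 2-fold higher in the endosperm column labelled recovery than in that labelled 26 °C, against 24.8% of the 7156 genes in both tables. Of the 257 genes higher in embryo recovery, 235 are in both tables, and 73 (31.1%) were lower in endosperm recovery, against 9.04%. On day 22 the order was that of the embryo for the first list, with 39 of 413 (9.44%) lower in endosperm recovery, against 2.78%, and 11 (2.66%) higher, against 3.21%. For the second list 16 of 235 (6.81%) were higher, against 3.21%, and 11 (4.68%) lower, against 2.78%. Both shares of this list were thus above those of all genes.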

How the data were processed

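RNA was sequenced from dissected embryo and endosperm with seed coat, and the deposited tables hold the authors' TPM, 1 column per group. STAR 2.5, featureCounts and cutadapt 1.9.1 are named in the submitters' processing notes. Not given in the sources used here are the build, the annotation, the way libraries were combined and the rule that selected the genes. From these values, log2(TPM + 1) was computed with Python 3.11.15, numpy 2.4.6 and pandas 2.3.3, with no further scaling. The code of the split rule was checked on simulated columns without noise and with no gene near the split point. That check says nothing about genes near the border of the classes. The members, the classes and the alternatives were chosen with earlier results of these data known, and the sets chosen on days 1 to 22, the sorting by day 15 and the class levels over all columns were added after the values were seen. Named genes are at most 2 in each direction of a comparison or class, ranked by their log2 difference where the larger value was at least 5 TPM, plus the gene nearest the split point on each side. The marker lists of embryo, seed coat and endosperm could not be looked up, since no identifier matched. Bo7g111280 was chosen after its values were seen. The alternatives were pseudocount 0.1, no filter, a 5 TPM filter, median centring, rescaling without the 10 most abundant genes, folds of 1.5 and 3, and other split points. Tests over libraries were planned only for values per library and were not run, so no p-value is given. Depth is unknown, so no interval or detection limit is given.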

Additional observations from a re-analysis of the deposited data

Results flagged for a closer look

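Of the 436 embryo genes lower in recovery than at 26 °C on day 18, 13 were at least 2-fold higher in recovery than at 26 °C on day 22. This is 2.98% of the 436, near the 3.3% of all genes that were higher on day 22. With 1 value per group, this difference between days was not tested. Bo3g010180 was among them, with 3.11 TPM in recovery embryos of day 22 against 0.92 TPM in 26 °C embryos. Bo4g173640, chosen after the values were known for having the largest day 22 difference of the 13, had 10.8 TPM in recovery embryos of day 18 against 48.3 TPM in 26 °C embryos. Its day 22 values were 13.7 TPM in recovery embryos and 1.98 TPM in 26 °C embryos.

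Of the same 436 genes, 413 are also in the endosperm table, and 248 of these (60%) were at least 2-fold higher in the endosperm column labelled recovery than in that labelled 26 °C on day 18, and 6 (1.45%) were lower, against 24.8% higher and 9.04% lower over all genes in both tables. Whether these 2 endosperm columns carry exchanged labels cannot be told, and an exchange would turn the direction. The difference between the tissues was not tested.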

How the results depend on the processing

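No paired analysis was possible because the table holds 1 value per group, and leaving out single libraries could not be run for the same reason. Of 100 counts recomputed under 9 alternatives, 49 stayed within 1.5 times the reported count and 51 did not; the cause was not tested beyond what each setting does by construction. With pseudocount 0.1 there were 726 genes above and 833 below 26 °C in recovery, 1381 above and 2079 below 16 °C, 474 above and 1335 below 26 °C of day 15, 19 outside above and 151 below, 380 and 53 called on day 22 in the same and the opposite direction, 956 genes of day 15 nearer 16 °C, and 391 genes higher at 26 °C on day 7 and lower in recovery. With 1.5-fold these were 1170 and 1349, 1889 and 2784, 698 and 1986, 52 and 124, 899 and 65, 1441, and 566, with 1834 returned and 4598 held. With 3-fold they were 17 and 98, 296 and 348, 55 and 137, 1 and 12, 2 and 2, 119, and 30, with 369 returned and 1276 held. Rescaling gave 497 genes higher in recovery than at 26 °C, 2030 lower than at 16 °C, 350 higher than at 26 °C on day 15, 61 outside below, and 221 and 21 called on day 22 in the same and the opposite direction. Median centring gave 402 genes above and 342 below 26 °C of day 15, and the 5 TPM filter 779 lower than at 16 °C. A split point of 0.75 left 177 returned genes and one of 0.25 left 1160 held genes. The median share of the way back stayed between 0.356 and 0.384 in all of the pseudocount, filter, scaling and fold settings. Genes arisen after day 15 had a higher median share than those different on day 15 and steady in each of these settings. None of the 195 values of named genes reversed its sign, and 1 fell under the 3-fold limit, Bo9g164080 at 1.55.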
